A study of Mus musculus with 4 samples.

Results

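Ependymal cells of the mouse spinal cord were picked out of tdTomato-sorted single cells by their cilia transcripts. A cell was counted as ependymal when it held more than 500 and fewer than 50000 gene UMIs (unique molecular identifiers, each standing for a captured transcript molecule), a UMI in at least 3 of the 7 genes Tmem212, Cfap299, Dnah12, Cfap54, Spag16, Ccdc153 and Foxj1, and fewer than 5 UMIs of the microglial genes C1qa, C1qb and C1qc together. This took 137 of the 879 injured cells within the UMI limits and 36 of the 4159 uninjured cells, 173 of 5038 in all. The shares were 15.6% (95% Clopper-Pearson interval 13.2 to 18.2%) and 0.866% (0.607 to 1.20%). Both shares were set by a sort for tdTomato, so they describe the sorted suspension and not the cord.

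The mice carried Cx30-tdTomato, a tamoxifen-induced label that Cre switches on in cells using the promoter of the connexin gene Gjb6 (Cx30), mainly astrocytes. All animals, controls included, were given a pool of AAV reporter viruses intravenously, each built to carry a candidate enhancer and its own transcribed barcode. The authors report that pooled packaging left many enhancers with a barcode of another, though correct pairs were more likely to be detected. A barcode count is therefore not a sure measure of the enhancer it is named after. Injured mice received a spinal cord contusion 14 days after the virus and were sampled 3 days later, from a 5 mm segment around the lesion, while uninjured mice gave a segment at the same level. Mice entered the study at 8 to 12 weeks of age, and each condition pooled 1 or 2 animals per sex into a single gene library, so nothing below was tested across animals and the intervals cover counting error only.

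Ependymal cells form the ciliated lining of the central canal. Their motile cilia, built on axonemes of dynein arms, radial spokes and a central pair, move cerebrospinal fluid, and the programme is switched on by Foxj1 together with the RFX factors. After injury the lining of the spinal canal is known for proliferation and for the induction of intermediate filaments such as vimentin, nestin and GFAP.

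Promoter sequences of cilia genes and injury response genes are shown here because these groups separate in the comparisons that follow. They are RefSeq promoters of GRCm38.p6, reaching from 250 bases before to 50 bases after the annotated start. Capitals mark GTTGCCA in the cilia genes and the AP-1 letters in the injury response genes. The 7 letters GTTGCCA, searched on both strands, occurred in the promoters of 8 of the 37 motile cilia genes that had one (21.6%), against 5.02% of 27025 genes. These were Dnah7b, Hydin, Cfap44, Tekt1, Pifo, Mlf1, Drc1 and Lrrc23. None of the 4 rule genes with a promoter in the table held it. The full X-box consensus of the RFX factors, which can overlap GTTGCCA, was in 0 of the 37 and in 0.448% of all promoters. In the dynein regulator Drc1 (chr5:30281143-30281442, plus strand), the central pair gene Hydin (chr8:110266727-110267026, plus strand) and the tektin gene Tekt1 (chr11:72361833-72362132, minus strand), the match began 12, 14 and 15 bases before the start.
Drc1: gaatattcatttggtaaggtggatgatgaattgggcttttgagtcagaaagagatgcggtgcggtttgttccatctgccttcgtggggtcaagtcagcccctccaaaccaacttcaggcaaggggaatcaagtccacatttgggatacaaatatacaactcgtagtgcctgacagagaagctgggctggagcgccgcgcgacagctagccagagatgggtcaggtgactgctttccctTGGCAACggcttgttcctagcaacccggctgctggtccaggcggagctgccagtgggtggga
Hydin: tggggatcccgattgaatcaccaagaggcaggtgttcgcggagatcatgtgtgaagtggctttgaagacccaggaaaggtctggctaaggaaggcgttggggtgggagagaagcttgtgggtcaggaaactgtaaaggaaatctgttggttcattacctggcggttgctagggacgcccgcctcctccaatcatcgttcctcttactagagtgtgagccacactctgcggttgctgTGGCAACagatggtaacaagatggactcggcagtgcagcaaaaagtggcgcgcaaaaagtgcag
Tekt1: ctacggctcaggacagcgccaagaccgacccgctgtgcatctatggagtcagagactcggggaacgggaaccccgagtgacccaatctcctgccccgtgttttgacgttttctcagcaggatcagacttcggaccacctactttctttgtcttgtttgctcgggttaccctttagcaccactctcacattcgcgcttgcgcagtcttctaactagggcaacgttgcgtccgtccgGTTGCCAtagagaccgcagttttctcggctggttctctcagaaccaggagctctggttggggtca

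The AP-1 letters TGANTCA, searched on both strands and overlapping neither of the other motifs, occurred in 7 of the 25 injury response promoters (28%), against 8.97% of 27025 genes and 5.94% of the 5939 tested genes with a promoter. The holders were S100a11, Anxa2, Cxcl10, Osmr, Ifitm3, Emp1 and Plaur. Among the cilia genes 4 of 37 promoters held it, including those of Drc1 and Hydin, where it is left in lower case above. Ifitm3 (chr7:141010695-141010994, minus strand) and S100a11 (chr3:93520246-93520545, plus strand) are printed as list members with a match that were called higher in injured ependymal cells, although the call for S100a11 ended without astrocyte-rich cells (0.81) and its log2 ratio was -0.19 after thinning to 1000 UMIs. A match in these windows is a run of letters and says nothing of binding.
Ifitm3: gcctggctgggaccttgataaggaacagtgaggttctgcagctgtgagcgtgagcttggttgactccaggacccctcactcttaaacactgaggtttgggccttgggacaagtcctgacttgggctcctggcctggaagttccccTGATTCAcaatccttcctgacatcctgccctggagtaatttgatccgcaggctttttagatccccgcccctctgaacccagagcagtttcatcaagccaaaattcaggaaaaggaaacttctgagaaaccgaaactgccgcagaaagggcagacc
S100a11: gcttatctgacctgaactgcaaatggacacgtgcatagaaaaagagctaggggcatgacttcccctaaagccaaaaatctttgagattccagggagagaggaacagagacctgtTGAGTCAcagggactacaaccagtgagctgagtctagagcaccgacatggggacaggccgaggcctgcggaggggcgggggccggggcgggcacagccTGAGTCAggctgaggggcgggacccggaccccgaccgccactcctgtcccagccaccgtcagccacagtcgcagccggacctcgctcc

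The libraries differed in ways that touch what follows. Ependymal cells held a median of 10625 gene UMIs in the injured library (1029 to 37907) and 5002 in the uninjured one (2695 to 12180), summing to 1625055 and 210054. By the transcripts of Xist and of 4 Y-linked genes, 58 of the injured ependymal cells were female, 61 male and 18 unscored, whereas the uninjured ones were 0 female, 27 male and 9 unscored. Of all uninjured cells kept, 2 scored female and 2770 male, which goes against the labelled use of both sexes. The libraries shared 7 cell barcodes, none of them from an ependymal cell. For comparison, 305 injured and 3785 uninjured cells were classed as astrocytes, having a UMI in at least 4 of 8 astrocyte markers, and 114 and 29 cells with 5 or more C1q UMIs as C1q cells.

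By markers outside the rule, the ependymal label held for the medians but not for every cell. The 43 motile cilia genes summed to a median of 119 UMIs per 10000 gene UMIs in injured ependymal cells (9.39 to 322) and 154 in uninjured ones (22.0 to 240). In astrocytes the medians were 1.71 and 1.05. The choroid plexus genes Ttr, Kl, Aqp1 and Otx2 had no UMI in any ependymal cell, whereas Folr1 from the same list stood at 140 and 110 CPM (UMIs per 1000000 gene UMIs). Cells just inside the rule, with 3 markers, numbered 11 in the injured library with a cilia median of 48.3 per 10000 (19.3 to 170), and those just outside it, with 2 markers, numbered 13 with a median of 7.02 (0 to 192). In the uninjured library no cell had 3 markers and 1 had 2, at 4.59 per 10000, so fewer cells lay near the threshold there.

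Astrocyte transcripts were unevenly spread over the ependymal cells. In the uninjured library 10 of 36 held 44.5 to 119 UMIs of the 8 astrocyte markers per 10000, and the other 26 held at most 22.9. In the injured library only 2 of 137 were this rich, at 50.2 and 59.5, and the others held at most 29.1. Median levels in astrocytes themselves were 130 (injured) and 159 (uninjured). The 10 rich uninjured cells contributed 84304 of the 210054 UMIs, had a median of 17.3% mitochondrial UMIs and a median cilia level of 58.2 per 10000, against 165 in the other 26. Many comparisons of injured with uninjured ependymal cells are therefore given with and without these 12 cells (135 and 26 cells remain). A value given alone is for all members, and the effect of leaving the 12 cells out is then not shown. The cut at 40 per 10000 was chosen after the values were seen.

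**Figure D1:**
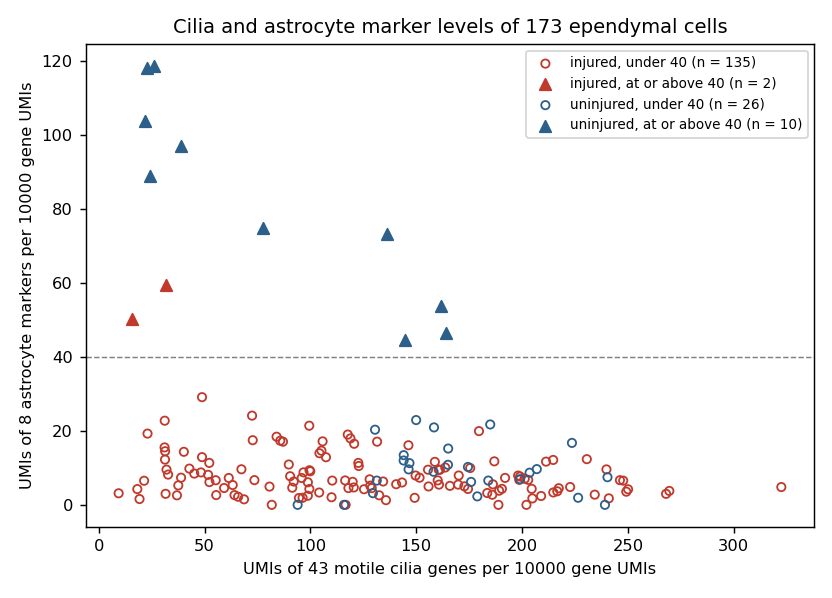
Each point is an ependymal cell, with its UMIs of 43 motile cilia genes per 10000 gene UMIs on the x axis and of 8 astrocyte markers on the y axis, in red for injured and blue for uninjured. Filled triangles above the dashed line at 40 are the 10 uninjured and 2 injured astrocyte-rich cells, and the open circles below it reach 29.1.

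The lowest level among the 26 uninjured cells that were not astrocyte-rich was 93.9 cilia UMIs per 10000. Below it lay 47 of all 137 injured ependymal cells (34.3%) and 6 of all 36 uninjured ones (16.7%), the 6 being astrocyte-rich. The level was set by those 26 cells, so none of them could fall below it. A difference between the libraries cannot be read from these shares. The 47 injured cells had a median of 12376 gene UMIs against 9821 in the other injured ones, and 17 injured cells lay within 10 of that level.

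The 7 rule genes chose the cells, so their levels are a description. The coiled-coil gene Ccdc153 (9:44240676-44247306, plus strand, GRCm38) had 398 UMIs in injured and 194 in uninjured ependymal cells, or 245 and 924 CPM, with at least 1 UMI in 84 of 137 and 33 of 36 cells. Tmem212, a membrane protein gene, was at 505 and 838 CPM. The axonemal genes stood at 1084 and 1309 CPM for Cfap299, 826 and 1109 CPM for Dnah12, 671 and 781 CPM for Cfap54 and 658 and 928 CPM for Spag16. The master regulator Foxj1 was at 305 and 219 CPM.

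Genes were compared between the injury states by summed UMIs. The log2 ratio was taken with 1 CPM added to both values, and a gene was called when this ratio was at least 1 in size and the exact 95% interval of the ratio of counts left out 1, among genes with a mean of at least 20 CPM. Of 7426 genes so tested, 359 were called higher in injured ependymal cells (4.83%) and 639 lower (8.6%). Without the astrocyte-rich cells 7300 genes were tested, with 259 higher (3.55%) and 504 lower (6.9%). Of the 359 higher calls 180 were kept there, and of the 639 lower calls 250 were kept. The median log2 ratio over tested genes was -0.06, and -0.18 without those cells.

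Most motile cilia genes were not called. The rule took cells by 7 cilia genes, so injured cells that had lost such transcripts would be left out. At the greater depth of the injured library a cell could also pass with a lower cilia level. The levels of the motile cilia genes are therefore partly set by the rule. All 43 were tested, of which 0 were higher and 1 lower, against 4.83% higher and 8.6% lower among all tested genes. Their median log2 ratio was -0.14, and their sum was 11276 CPM in injured and 12978 CPM in uninjured ependymal cells. The lower one was Odf3b, an outer dense fibre gene, at 127 and 267 CPM (-1.07). At the other end lay the tubulin-binding gene Tppp3, at 449 and 262 CPM (0.77). Without the astrocyte-rich cells the uninjured sum was 17288 CPM and the median -0.53. There 4 of the 43 genes were lower, against 6.9% of all tested genes, so the count is near that share. They were Odf3b (-1.41), the radial spoke gene Rsph1 (-1.11), Cfap52 (-1.25) and Cfap65 (-1.12). Heavy chain genes of the dynein arms were not called in either set of cells, such as Dnah5 at 362 and 381 CPM (-0.07, and -0.52 without those cells) and Dnah11 at 428 and 424 CPM (0.01 and -0.25).

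Regulators of multiciliation were mostly too sparse to compare. Only 5 of 14 passed the filter, 0 were called, and their median was 0.39, or -0.15 with all measurable members counted and genes with no uninjured UMI set at their bound. Rfx3, a factor of the X-box family, stood at 758 and 505 CPM (0.59) and Myb at 48.0 and 38.1 CPM (0.33). E2f5, a partner of the multicilin complex, had the lowest ratio at 32.0 and 61.9 CPM (-0.93). It was called lower without the astrocyte-rich cells (-1.49), as was Trp73 (-1.71). The genes of the complex itself, Gmnc and Mcidas, had 2 and 1 UMIs in injured cells and 0 in uninjured ones.

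Surface and secreted products of ependymal cells went both ways, with 12 of 13 genes tested, 3 higher, 3 lower and a median of 0.09. The shares among all tested genes were 4.83% higher and 8.6% lower. Rarres2, which encodes the chemoattractant chemerin, fell from 1085 to 417 CPM, 2.60-fold (2.23 to 3.03), and to a log2 ratio of -1.83 without the astrocyte-rich cells. Its median level per cell was 7.21 per 10000 in uninjured cells and 1.49 in injured ones, and the ranges overlapped. The surface glycoprotein gene Cd24a rose from 328 to 921 CPM, 2.80-fold (2.20 to 3.62), and remained called without those cells (1.08). Igfbp5, an IGF-binding protein gene, rose from 129 to 470 CPM (1.86, and 1.59 without). Clusterin (Clu) rose from 1390 to 3050 CPM (1.13), a call that was lost without them (0.86). Lower calls for the water channel gene Aqp4 (-1.80) and Igfbp2 (-1.22) also ended there, at 0.23 and -0.98. Mia, a secreted protein gene, was at 1421 and 919 CPM (0.63).

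Vim, Gfap and Fabp7 rose with and without the astrocyte-rich cells, Nes was called with them only, and the stem cell factors Sox2 and Sox9 were not called. Of the 20 progenitor genes 15 were tested, 4 were higher and 2 lower, with a median of 0.22. All tested genes together had 4.83% higher and 8.6% lower. Vim (2:13573927-13582826, plus strand), encoding vimentin, went from 320 UMIs and 1523 CPM in uninjured to 11225 UMIs and 6907 CPM in injured ependymal cells, 4.53-fold (4.06 to 5.08). Its level per cell had a median of 54.6 per 10000 in injured cells (0 to 255) and 16.7 in uninjured ones (0 to 53.0), so the ranges overlapped, and levels above 53.0 were seen in injured cells alone. The ratio without the astrocyte-rich cells was 1.63.

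Gfap, the astrocyte filament gene, had 819 UMIs in 93 of 137 injured cells and 3 UMIs in 3 of 36 uninjured ones, that is 504 and 14.3 CPM, a ratio of 35.3 (12.03 to 171). Its 3 uninjured UMIs lay in astrocyte-rich cells, and without those it was at least 19.8-fold higher, against a floor of 3 counts over the group. Injured astrocytes held Gfap at 2878 CPM, and injured ependymal cells were at 473 CPM without the rich ones. After thinning, Gfap had a UMI in 25.5% of injured ependymal cells (18.5 to 33.7%) and 84.1% of injured astrocytes (79.5 to 88.1%). In C1q cells of that library the share was 3.74% (1.03 to 9.3%). Whether stray or attached astrocyte transcripts contributed to the ependymal UMIs was not tested.

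Nestin (Nes) was higher at 62.2 and 19.0 CPM (1.66, and 0.98 and no longer called without the rich cells), and the fatty acid binding protein gene Fabp7 at 227 and 66.7 CPM (1.75 and 1.86). Sox2 was at 586 and 705 CPM (-0.26) and Sox9 at 538 and 462 CPM (0.22). The Notch target Hes1 was lower at 49.2 and 124 CPM (-1.31 and -1.91), as was the inhibitor of differentiation Id2 (-3.06 and -1.73). Notch1 itself was called higher only once the rich cells were out (0.48 and 1.27).

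Injury response genes had the largest share of higher calls among the lists compared. Of 31 genes 20 were tested, 12 were higher and 1 lower, against 4.83% higher and 8.6% lower among all tested genes. The median was 1.30, or 0.88 with 29 measurable genes counted and those without an uninjured UMI at their bound. In all, 13 of the 31 had no UMI in the 36 uninjured cells. Without the astrocyte-rich cells 8 were higher and 1 lower, at a median of 0.90, against 3.55% and 6.9% of all genes tested there. The list sums were 9640 and 3461 CPM, against 7610 and 381 CPM in astrocytes.

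Ifitm3 (7:141009586-141010770, minus strand), an interferon-induced membrane protein gene, rose from 828 to 3425 CPM, 4.13-fold (3.56 to 4.84). After thinning it was seen in 124 injured (90.5%) and 16 uninjured ependymal cells (44.4%), with medians of 30.3 (0 to 116) and 8.25 (0 to 62.4) per 10000. In astrocytes it stood at 103 and 4.23 CPM, both below the ependymal levels. The small heat shock protein gene Hspb1 rose from 129 to 1078 CPM, 8.38-fold (5.74 to 12.8), and was seen after thinning in 53.3 and 13.9% of cells. S100a6, a calcium-binding protein gene, rose from 129 to 734 CPM, although 77.8% of its uninjured UMIs lay in 3 cells.

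A second set of these genes was absent from the uninjured cells at this depth. C3 (17:57203970-57228136, minus strand), the central complement component, had 229 UMIs in 56 injured cells and 0 in uninjured ones, at least 9.87-fold higher and at least 6.02-fold without the rich cells. Serpina3n, a protease inhibitor gene of reactive glia, had 179 UMIs in 63 cells and 0, at least 7.71-fold and 4.63-fold. In astrocytes C3 was at 22.4 and 0.14 CPM and Serpina3n at 389 and 7.97 CPM, so C3 was higher in injured ependymal cells (141 CPM) and Serpina3n in injured astrocytes. After thinning, C3 was seen in 10.2% of injured ependymal cells (5.70 to 16.6%) and Serpina3n in 5.84% (2.55 to 11.2%). The shares of injured astrocytes were 2.03% and 25.3%. Among 107 thinned C1q cells of the injured library, 0 had a UMI of either gene (upper limit 3.39%). For Serpina3n the ependymal and C1q intervals therefore overlapped. Timp1 had 59 UMIs in 30 injured ependymal cells and Lcn2 had 17 in 5 cells, and neither reached the filter.

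Among cells scored male only (61 injured and 27 uninjured), the calls for Ifitm3 (1.98), Hspb1 (2.88), S100a6 (2.80), C3 and Serpina3n, and for Vim (2.52) and Gfap (4.62) above, were all kept, as was that for Rarres2 (-1.15), while Igfbp5 (0.98), Clu (0.79), Hes1 (-0.19) and Odf3b (-0.88) were no longer called.

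The other genes of the list called higher were Lgals1 (2.71, and 3.52 without the rich cells), Cebpd (3.38), Cd44 (2.83), Msn (1.62), S100a11 (1.33), Stat3 (1.26) and Lgals3 (1.16). Cebpd and Cd44 each rested on 1 uninjured UMI, with ratios of 12.4 (2.17 to 495) and 8.40 (1.46 to 337). After thinning the ratios of Msn and S100a11 turned to -0.27 and -0.19. Calls for Cd44, S100a11 (0.81), Stat3 (0.99) and Lgals3 (0.55) were lost without the rich cells. The annexin genes Anxa2 (433 and 324 CPM) and Anxa5 (498 and 424 CPM) were already abundant in uninjured ependymal cells and were not called. The cytokine feedback inhibitor Socs3 went the other way, at 97.8 and 262 CPM (-1.41, and -2.10 without). Of the 7 genes with an AP-1 match in the promoters printed or named above, S100a11 and Ifitm3 were called higher, Anxa2 and Emp1 were tested and not called, and Osmr, Cxcl10 and Plaur were below the filter.

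**Figure D2:**
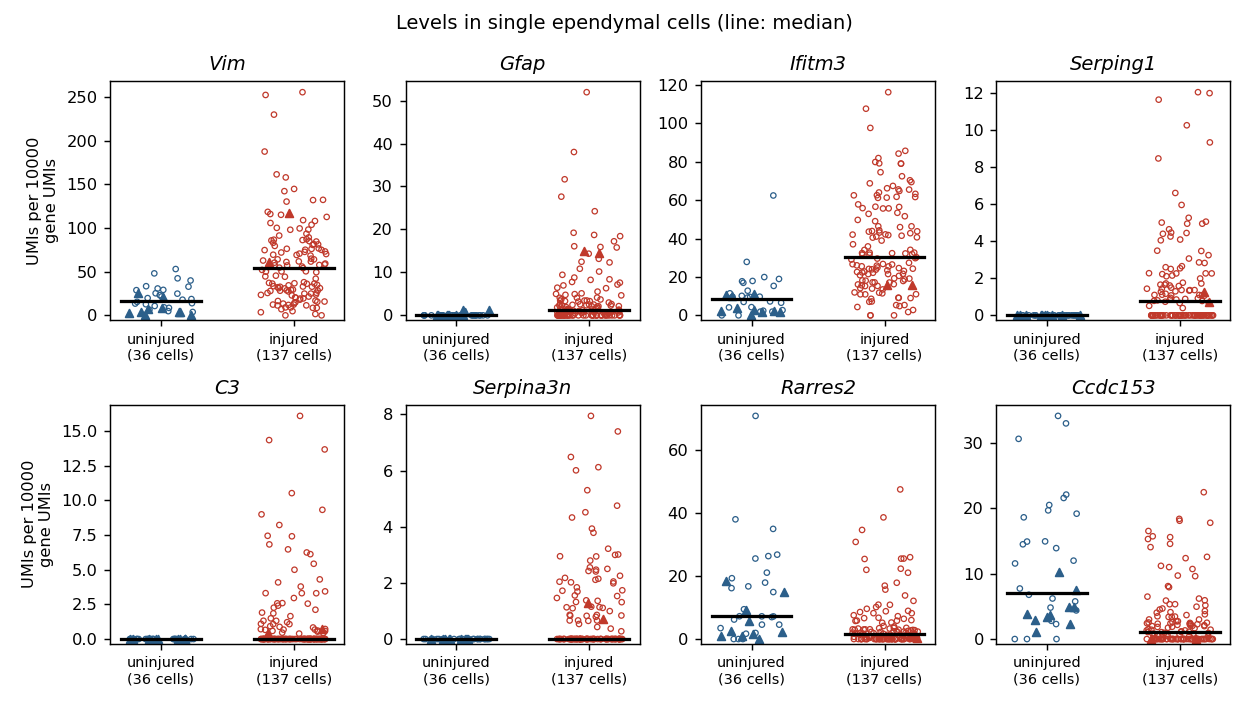
Levels of 8 genes in single ependymal cells, in UMIs per 10000 gene UMIs on linear axes that start at 0, with a line at the median and filled triangles for astrocyte-rich cells. Injured cells (red) reach above the uninjured range (blue) for Vim, Gfap, Ifitm3, Serping1, C3 and Serpina3n, whereas the median of Rarres2 is lower in injured cells, and Ccdc153 is shown as a gene of the rule that chose the cells.

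Serping1, C3 and C4b were among the 15 genes with the highest ratios. After Xist, which reflects the sex of the cells, the highest ratio belonged to Serping1 (2:84765387-84775444, minus strand), the inhibitor of the first complement protease. It had 279 UMIs in 76 of 137 injured ependymal cells (55.5%) and 0 in the 36 uninjured ones, which allows a share of cells with a UMI of up to 8.33% at their lower depth and sets no limit on cells expressing it. This made it at least 12.02-fold higher, or 7.30-fold without the rich cells. Injured astrocytes held it at 11.7 CPM, 14.7-fold below the 172 CPM of injured ependymal cells (9.58 to 23.5). C4b, a further complement component, had 103 UMIs in 55 cells and 0 (at least 4.44-fold), but injured astrocytes held more of it (134 CPM against 63.4).

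Among the 15 highest genes 14 had no UMI in uninjured ependymal cells, so their order is that of their injured levels. Several rested on few cells. The regenerating islet-derived gene Reg1 had 121 UMIs in 17 cells, with 74.4% of them in 3, and Crym, a thyroid hormone binding protein gene, 160 UMIs in 30 cells with 76 in 1 cell. Olfml3, a matrix protein gene, had 328 UMIs in 41 cells and 1 UMI in uninjured cells, a ratio of 42.4 (7.56 to 1680). Lgr5, the R-spondin receptor gene known from epithelial stem cells, had 89 UMIs in 21 cells and 0 (at least 3.83-fold). The microfibril gene Mfap2 had 72 UMIs in 38 cells and 0 (at least 3.10-fold), and Ypel2 74 in 37 cells (3.19-fold). With the rich cells left out the list of 15 shared 10 genes and took in Gfap, Tmem176a, Col4a5, Nupr1 and Fam155a.

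The 15 lowest genes followed the astrocyte-rich cells. They included the claudin gene Cldn10 (4.31 and 209 CPM, -5.31), the amino acid transporter gene Slc7a10 (9.23 and 343 CPM, -5.07) and Gm3764 (13.5 and 514 CPM, -5.15). All 15 were at least 2 times higher in uninjured astrocytes than in the uninjured ependymal cells that were not astrocyte-rich, and 1 of them, Gm3764, was still called without the rich cells (-3.00). Once these were removed, the lowest genes included the shear stress factor gene Klf2, at 49.2 and 400 CPM (-3.00, and -3.62 without), and the antiproliferative gene Btg2, at 123 and 676 CPM (-2.45 and -3.06). C1q cells of the uninjured library held Klf2 at 1368 and Btg2 at 1128 CPM, against 393 and 243 CPM in the injured one, so both genes were also higher in the uninjured library in another cell type, whose part in the result was not tested.

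**Figure D3:**
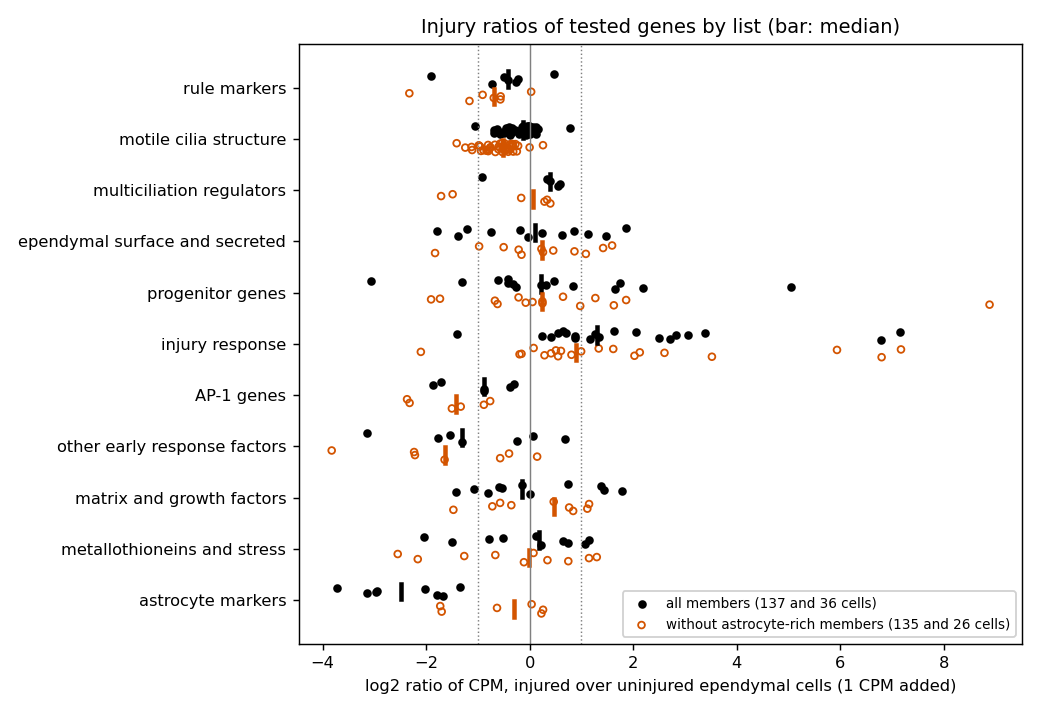
Log2 ratios of CPM in injured over uninjured ependymal cells for the tested genes of each list, with all 137 and 36 cells in black and without the astrocyte-rich cells in orange, and bars at the medians. Injury response genes have the medians 1.30 and 0.90, motile cilia genes -0.14 and -0.53, AP-1 genes -0.88 and -1.42, and other early response factors -1.30 and -1.65.

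With all members counted, every called gene among the immediate early genes was lower in injured ependymal cells. Of 9 AP-1 genes 6 were tested, 0 were higher and 2 lower, with a median of -0.88. Without the rich cells 4 were lower, with a median of -1.42. Among all tested genes 8.6% were lower, and 6.9% without the rich cells. Junb was at 119 and 438 CPM (-1.87), and Atf3 at 157 and 514 CPM (-1.71), with 71.3% of the uninjured Atf3 UMIs in 3 cells. Fos, at 1292 and 2395 CPM, was not called (-0.89) until the rich cells were removed (-1.50), and the same held for Fosb (-0.88 and -1.33). Of the 9 other early response factors 7 were tested, 0 were higher and 4 lower, namely Egr1 (-1.30), Ier2 (-1.77), Nr4a1 (-1.55) and Maff (-3.14), with a list median of -1.30. Klf6 had the highest ratio of these, at 154 and 95.2 CPM (0.69), and was not called.

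These values moved with the set of cells used. No uninjured ependymal cell scored female, so keeping male cells took out 9 unscored uninjured cells, none of them astrocyte-rich. The 10 rich uninjured cells all scored male and remained. Sex and the share of rich cells therefore cannot be told apart in the male-only values. In C1q cells the AP-1 sum was 3653 CPM injured and 13085 CPM uninjured, also lower in the injured library, while in astrocytes it was 361 and 142 CPM. Among cells scored male only (61 and 27), Fos had a ratio of -0.09, Fosb 0.94, Junb -1.23, Atf3 -0.61, Egr1 -0.78 and Ier2 -0.60, Jun reversed to 1.10, and Klf6 was called higher at 1.78. With the rich cells also left out (60 and 17) the values were -0.89 for Fos, -1.67 for Junb, -1.46 for Atf3, -1.16 for Egr1 and -2.33 for Nr4a1, but 0.98 for Fosb, 0.71 for Jun and 1.13 for Klf6, which was again called higher. Socs3 followed the same course, at -0.23 in male cells and -1.12 in male cells without the rich ones. Library and injury cannot be told apart for these genes.

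The share of ependymal cells with G2 and M phase transcripts depended on how many genes were asked for. A UMI in at least 3 of 19 G2 and M phase genes marked 10 of the 137 injured members (7.30%, 3.56 to 13.0%) and 2 of the 36 uninjured members (5.56%, 0.680 to 18.7%), and after thinning to 1000 UMIs it marked 0 of both. With at least 2 genes it marked 46 injured members (33.6%, 25.7 to 42.1%) and 6 uninjured ones (16.7%, 6.37 to 32.8%) before thinning. The 10 injured cells were deeper than the others, with a median of 17268 UMIs against 10388. A single injured cell of 25551 UMIs held 100 of the 306 G2 and M UMIs, from 14 of the genes, and the next held 7. In C1q cells of the injured library the share before thinning was 27 of 114 and in astrocytes 11 of 305. Of the G2 and M genes 2 were tested and 0 called (median -0.19). Of 16 S phase genes 3 were tested, with the helicase gene Mcm4 lower at 23.4 and 57.1 CPM (-1.25, -1.94 without the rich cells, and -0.80 and not called in cells scored male only).

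Other gene groups showed scattered calls, where the shares among all tested genes were 4.83% higher and 8.6% lower. Of 20 matrix and growth factor genes 18 were in the files and 11 were tested, with a median of -0.14. The neurotrophin gene Bdnf (53.5 and 19.0 CPM, 1.44) and the proteoglycan gene Vcan (126 and 47.6 CPM, 1.38) were higher and Vegfa lower (-1.43), and without the rich cells Vcan alone was called (1.15). After thinning to 1000 UMIs the Bdnf ratio turned to -0.88. Fibronectin (Fn1) had 60 UMIs in 29 injured cells and 0 in uninjured ones. Of 12 metallothionein and stress genes 10 were tested, with a median of 0.17. Mt2 (1462 and 695 CPM, 1.07) and the heat shock gene Hspa1b (1.15) were higher, the lens crystallin and chaperone gene Cryab (-1.50) and the stress sensor gene Gadd45b (-2.05) lower, and the call for Mt2 ended without the rich cells (0.75). Mt1 (4074 and 3494 CPM) and Mt3 (5504 and 3294 CPM), which bind zinc and copper, were not called. Among 11 antigen presentation genes 4 were tested, at a median of 0.75, and H2-D1, a class I chain, was higher (1.08), but not without the rich cells (0.73) or after thinning (-0.021).

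Genes that pattern the dorsoventral axis of the neural tube were sparse, with 3 of 12 tested and a median of -1.23. The guidance gene Ntn1 was higher at 74.5 and 28.6 CPM (1.35), whereas Nkx6-1 was lower at 78.8 and 186 CPM (-1.23, and -1.55 without the rich cells). In cells scored male only neither was called (1.07 and -0.76). Dbx2 was lower (-2.75), but its 16 uninjured UMIs all lay in astrocyte-rich cells.

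Junction genes showed no called rise. The label used for the sort, tdTomato, was at 296 CPM in injured and 462 CPM in uninjured ependymal cells and had a UMI in 96 of 137 and 24 of 36 cells. Astrocytes held it at 2227 and 418 CPM. Gjb6, whose promoter drives the Cre, had 17 UMIs in 3 injured ependymal cells and 21 UMIs in 8 uninjured ones, of which 1 was outside the astrocyte-rich cells. Gja1, encoding connexin 43, was at 247 and 419 CPM (-0.76), and the adhesion gene Cdh2 at 246 and 209 CPM (0.23). Of the 7 genes of this list 5 were tested, 0 were higher and Gjb6 alone lower (-3.14), at a median of -0.64.

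Among markers of other cell types, those of astrocytes were the most abundant. They summed to 972 and 4237 CPM in injured and uninjured ependymal cells, and to 827 and 1010 CPM without the rich ones, against 13260 and 15957 CPM in astrocytes. The 8 astrocyte markers were all called lower (median -2.49), and without the rich cells 6 were tested and 1, Fgfr3, was lower (median -0.30). Microglial and macrophage markers summed to 140 and 119 CPM against 30967 CPM in injured C1q cells, with 2 of 10 tested and 0 called. Fibroblast markers summed to 52.9 and 57.1 CPM (1 of 6 tested, 0 called), OPC markers to 19.1 and 162 CPM (1 of 6 tested, Olig1 lower), myelin markers to 101 and 228 CPM (3 of 6, with Mbp among the genes lower), neuron markers to 9.23 and 114 CPM (1 of 6, Snap25 lower) and endothelial and mural markers to 11.1 and 71.4 CPM (1 of 6, Rgs5 lower). Of these, Snap25 alone was still called without the rich cells. Blood cell markers summed to 6.15 and 9.52 CPM with none tested, 1 of 6 choroid plexus markers was tested and not called, and among the 5 sex genes Xist was higher and Ddx3y and Eif2s3y lower.

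The injury ratio was then compared between ependymal cells and astrocytes of the same libraries, gene by gene, with a Wald interval on the difference of the log2 ratios. It was formed for 4147 genes with at least 10 UMIs in each of the 4 sums, 178 were higher in ependymal cells (4.29%) and 740 lower (17.8%), and the median difference was -0.27. Without the astrocyte-rich cells there were 133 of 2652 higher (5.02%) and 654 lower (24.7%). Of the 10 genes with the lowest differences, none was above 5.82 CPM in uninjured astrocytes.

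Vim is the plainest case. In astrocytes it rose from 5.82 to 1667 CPM and in ependymal cells from 1523 to 6907 CPM, a difference of -5.98 (-6.33 to -5.63) on the log2 scale, although the level in injured ependymal cells remained above that in injured astrocytes. Differences in this direction were also large for the scaffold gene Ahnak (1.11 to 87.0 CPM in astrocytes, 119 to 156 CPM in ependymal cells, -5.91), the actin crosslinker gene Flnc (1.39 to 53.9, and 95.2 to 73.8 CPM, -5.65), the chloride channel gene Clic1 (-5.61), S100a11 (-5.53) and Anxa2 (2.63 to 131, and 324 to 433 CPM, -5.22), of which S100a11 alone was called higher in ependymal cells with all members counted. For Ahnak, Flnc, Clic1 and Anxa2 the level in uninjured ependymal cells was above that in injured astrocytes, and for Vim and S100a11 (114 CPM against 316 CPM) it was below.

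For Socs3 (-5.85), Gadd45b (-5.04), Egr1 (-4.91) and the myosin light chain gene Myl9 (-4.76) the ratios pointed in opposite directions, up in astrocytes and down in ependymal cells. Myl9 rested on 22 and 13 ependymal UMIs and had fewer than 10 uninjured ones without the rich cells.

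Higher ratios in ependymal cells were led by Erbb4. This neuregulin receptor gene went from 895 to 3213 CPM in ependymal cells and from 1492 to 715 CPM in astrocytes, a difference of 2.91 (2.68 to 3.13), and of 3.19 without the rich cells. The long non-coding RNA gene Rmst went from 357 to 1757 CPM against 243 to 224 CPM (2.42), the guidance receptor gene Robo1 from 99.97 to 358 CPM against 264 to 192 CPM (2.30) and the ephrin gene Efna5 from 52.4 to 174 CPM against 22.6 to 16.3 CPM (2.20). Cdh11 (2.44), Acvr1 (2.17), Mob3b (2.03) and Fcho2 (2.01) also had higher ratios in ependymal cells. For Kcnip4 (2.18) and Sox1 (2.03) the ependymal ratio was not called, and astrocyte levels were lower in the injured library (98.2 against 281 CPM, and 13.2 against 59.6 CPM).

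**Figure D4:**
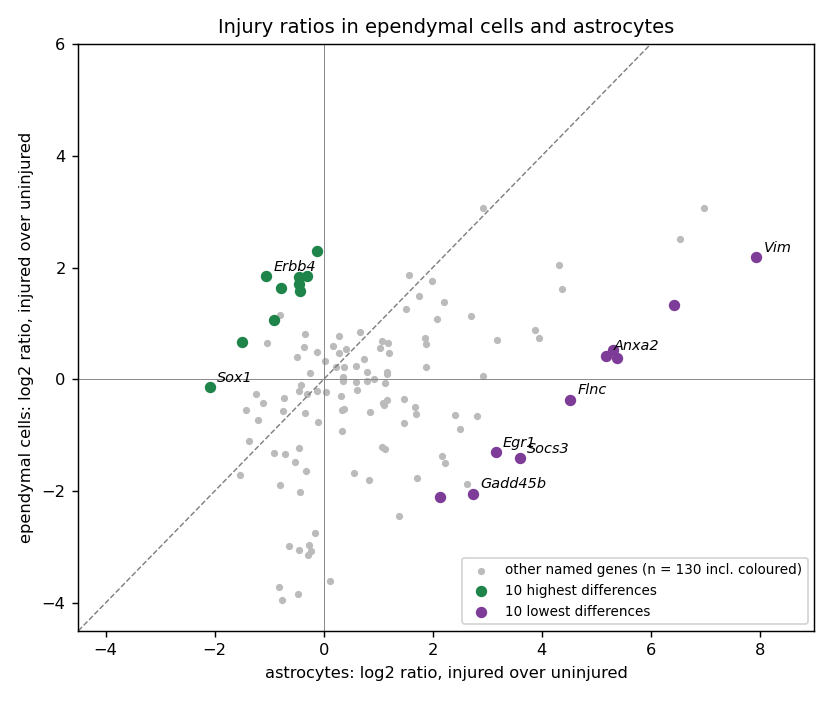
Each point is a named gene, with its log2 ratio of injured over uninjured CPM in astrocytes on the x axis and in ependymal cells on the y axis, and the 10 highest and 10 lowest differences coloured. Vim, at a difference of -5.98, lies far to the right, and Erbb4, at 2.91, lies in the upper left.

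Measured against astrocytes of the injured library, ependymal cells were distinct over much of the transcriptome, as cells chosen by their transcripts must be. Of 7560 genes 1475 were higher (19.5%) and 1265 lower (16.7%), and all 43 motile cilia genes and all 7 rule genes were higher. Of the 27 injury response genes tested there, 10 were higher in ependymal cells, Ifitm3 and C3 among them, and 12 lower, such as Serpina3n and Timp1. All 6 AP-1 genes tested in this pair were higher in ependymal cells.

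Enhancer barcodes from the AAV pool were found in 85.4% of injured ependymal cells, against 66.2% of injured astrocytes and 86.0% of injured C1q cells. These shares were taken before thinning, at median depths of 10625, 4607 and 14399 gene UMIs, so they do not rank barcode levels. Scaled to gene UMIs, all barcodes together stood at 211 CPM in ependymal cells, 262 CPM in astrocytes and 224 CPM in C1q cells. The ependymal value was the lowest of these, but it was close to that of C1q cells and no interval is given for these totals. The pool had 23 enhancers, 19 named M and 4 named A in the files. Values below are of the barcodes with these names, which in a pooled package need not mark the enhancer carried. Injured ependymal cells held 343 barcode UMIs of 6 of them, with at least 1 in 117 of 137 cells, a median of 2 per cell and at most 10. M5 had 139 UMIs in 83 cells (60.6%), or 85.5 CPM of gene UMIs (71.9 to 101), and A1 had 132 UMIs in 79 cells, or 81.2 CPM. M8 had 30 UMIs in 26 cells, A5 had 32 in 27 cells, M24 had 8 and M11 had 2, and the other 17 had none.

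Set against other cells of the library, M5 in ependymal cells was 0.934 times its level in astrocytes (0.743 to 1.17) and 1.10 times that in C1q cells (0.866 to 1.41). For A1 the ratios were 0.923 (0.730 to 1.16) and 0.905 (0.713 to 1.15). A5 was lower than in astrocytes at a ratio of 0.509 (0.326 to 0.779), and 0.642 of its level in C1q cells (0.402 to 1.01). M24 was lower than in astrocytes too (0.262, 0.105 to 0.571). C1q cells, which a sort for labelled astrocytes should leave out, held M5 and A1 at levels whose ratios to the ependymal ones had intervals that include 1, so no ependymal level above that of C1q cells was measured for them. Whether these UMIs are free RNA or expression was not tested. After thinning, M5 was seen in 8.76% of ependymal cells, 7.77% of astrocytes and 6.54% of C1q cells, whose median depths before thinning were 10625, 4607 and 14399 UMIs.

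Uninjured ependymal cells held 9 barcode UMIs, all of A5, in 8 of 36 cells, or 42.8 CPM (19.6 to 81.3). In uninjured astrocytes A5 stood at 58.5 CPM, a ratio of 0.733 (0.334 to 1.40). Uninjured C1q cells held 14 A5 UMIs, or 124 CPM, and the ependymal level was 0.345 of that (0.132 to 0.855). The other 22 enhancers had no UMI, which allows up to 14.3 CPM for each. Whereas M enhancers together had 5.59 UMIs per A5 UMI in injured ependymal cells (3.82 to 8.42), 3.50 in astrocytes and 3.38 in C1q cells, they had 0 against 9 in uninjured ependymal cells.

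**Figure D5:**
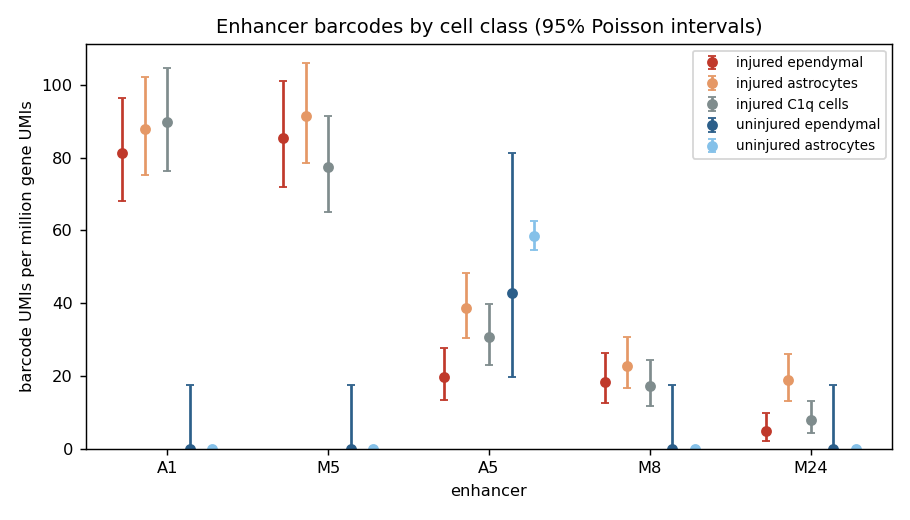
Barcode CPM (UMIs per 1000000 gene UMIs) of 5 enhancers (x axis) by cell class and library, with 95% Poisson intervals for counting error. M5 and A1 lie between 77.5 and 91.6 in all 3 injured classes, and A5 is lower in injured ependymal cells (19.7) than in injured astrocytes (38.7). Uninjured ependymal cells and astrocytes are near 0 for all but A5, and uninjured C1q cells are not drawn.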

How the data were processed

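Sorted tdTomato+ cells of injured and uninjured cord were profiled by droplet 3′ single-cell RNA sequencing, with 1 gene library and 1 enriched barcode library per condition. The deposited matrices hold UMI counts for 32287 genes and 23 enhancer barcodes, made by the authors with Cell Ranger (8.0.1 per the labels, 7.1.0 per the file header) on mm10. Cells within 500 to 50000 gene UMIs (both ends excluded) entered the analysis. Ependymal cells were taken by the stated rule, and the members and gene lists were chosen with earlier results of these data known.

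UMIs were summed per class and scaled to 1000000. With 1 library per condition no test across animals was possible, so ratios carry exact conditional binomial intervals, shares Clopper-Pearson intervals and levels Poisson intervals, all at 95%. A gene at 0 was bounded against 3 counts over the group. Thinning drew 1000 UMIs per cell without replacement and left out 0 ependymal cells, 9 and 49 astrocytes and 7 and 3 C1q cells (injured and uninjured). Astrocytes had a UMI in at least 4 of 8 markers, fewer than 2 rule genes, and fewer than 3 Pdgfra, 3 Cldn5 and 5 fibroblast marker UMIs. Doublets were not removed, but scored with Scrublet in scanpy 1.11.5, where 3 injured and 0 uninjured ependymal cells fell in the top 5% of scores. Genes with 1 of 78 symbols listed more than once were kept by identifier. Named genes were the rule genes, list members, the 15 highest and lowest ratios, the 10 highest and lowest differences from astrocytes and enhancers with at least 10 UMIs. Others are said to be chosen after their values were seen. Gene positions are GENCODE, GRCm38. Analyses used Python 3.11.15, numpy 2.4.6, scipy 1.17.1 and pandas 2.3.3, and scripts were tested on simulated data. Enhancer sequences were not analysed here, and some genes are not reported here.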

Additional observations from a re-analysis of the deposited data

Results flagged for a closer look

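For 5 genes the injury ratio pointed up in one cell class and down in the other, past the fold used for calls in both. Erbb4 differed by 2.91 on the log2 scale, higher in ependymal cells. Socs3 (-5.85), Gadd45b (-5.04), Egr1 (-4.91) and Myl9 (-4.76) were lower in injured ependymal cells and higher in injured astrocytes. Myl9 rested on 22 injured and 13 uninjured UMIs in ependymal cells. In ependymal cells scored male only the ratios of Socs3 (-0.23) and Egr1 (-0.78) were not called. These differences were not tested across animals, since each condition is 1 library.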

How the results depend on the processing

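No paired analysis was possible because the conditions share replicate number 1 only. Without members holding 5 or more UMIs of other cell types, 227 genes were higher in injured ependymal cells and 114 had a higher ratio than in astrocytes. Thinning gave 116 higher and 269 lower, and 22 and 170 for the difference from astrocytes. A mean of at least 50 CPM gave 277 lower, and no filter 1006. Against injured astrocytes these filters gave 853 and 2679 higher and 691 and 2415 lower. The injured ependymal share became 12.1% with at least 5 of 7 markers, 19.4% in male cells and 12.6% without members holding other types' UMIs. Members with G2 and M phase transcripts were 33.6% of the injured ones with 2 genes in place of 3. With 3 genes they were 0 in both libraries after thinning. For A5 over C1q cells the interval left out 1 with at least 4 markers (0.561), 5 markers (0.552) and without other types (0.576), and for A5 over astrocytes it took in 1 in male cells (0.663) and after thinning (0.432). Reversed log2 ratios were Bdnf (-0.88), H2-D1 (-0.021), Msn (-0.27) and S100a11 (-0.19) after thinning, Jun (1.10) in male cells, Aqp4 without astrocyte-rich members (0.23, and 0.34 in male cells) and Lgals3 in male cells without them (-0.076). The cause was not tested. The other comparisons of 135 named genes with each alternative gave 1899 unchanged calls, 121 lost and 48 gained. Leaving out astrocyte-rich members, or members with 20% or more mitochondrial UMIs, was chosen after seeing the data. A gene with no UMI in the 36 uninjured cells could have one in up to 8.33% of such cells.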
